A study of Mus musculus with 12 samples.

Results

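The Egr transcription factors Egr1, Egr2, Egr3 and Egr4 and their corepressors Nab1 and Nab2 were followed on every probe that the platform annotation gives to these 6 genes. These are 6 of the 19057 genes named on the array, and they have 12 of its 45281 probes, 5 for Egr genes and 7 for Nab genes. A probe was tested where its detection p-value was under 0.05 on at least 6 of the 12 arrays, which kept 11 of these 12 probes and 21263 probes in all. The genes were selected on measured values of the ethanol comparison, among them the difference of Egr2 and the separation of the groups on 1 Nab1 probe. The ethanol values below are therefore a description and support nothing by themselves.

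Messenger RNA was measured on Illumina bead arrays in hippocampi of C57BL/6J males aged 3 weeks. The ethanol group held 6 arrays of mice whose mothers took 10% ethanol voluntarily between 0.5 and 8.5 days post-coitum, and the control group held 6 arrays of the same strain, sex and age. Both groups were spread evenly over 2 beadchips, with replicates 1 to 3 on the first and 4 to 6 on the second. The labels do not give the dam or litter of any array, so p-values measure only the spread between these samples, some of which may be technical or due to common litters.

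Egr proteins are zinc finger transcription factors whose genes are switched on within minutes of synaptic activity or growth factor signalling, through ERK kinase signalling, SRF with its ternary complex factors, and CREB. Egr1 (Zif268) and Egr3 are known in the hippocampus for roles in lasting synaptic potentiation and memory, and Egr2 (Krox20) for hindbrain segmentation and Schwann cell myelination as well as induction in neurons. Nab1 and Nab2 bind a repression domain that Egr1, Egr2 and Egr3 share and Egr4 lacks, and they hold down Egr activity in part by recruiting the NuRD chromatin remodelling complex. Nab2 is itself an activity-induced gene in several cell types, so that Egr factors and Nab proteins form a feedback loop.

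The 250 bases before each RefSeq transcription start on GRCm38.p6 were searched on both strands for 4 motifs: the CArG box, which SRF binds; the full cyclic AMP response element TGACGTCA, which CREB binds; its core TGACG, which also lies inside the full element; and the Egr site GCGNGGGCG. Windows were listed for 4 of the 6 genes, namely 5 starts of Egr2 and 1 start each of Egr4, Nab1 and Nab2. The Egr2 stretch is shown for its CArG box and response element core side by side, both in capitals, at chr10:67537793-67537822 on the plus strand.
Egr2: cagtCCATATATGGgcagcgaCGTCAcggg
In 32851 windows of 250 bases, 1.47% held a CArG box and 17.8% held the response element core. These are shares per window, whereas Egr2 had 5 windows. Overlapping Egr2 windows share the stretch shown, another Egr2 window held a different CArG box, and another held no match. Egr4 is shown over its whole window at chr6:85513590-85513839, minus strand, for its 2 response element cores in capitals.
Egr4: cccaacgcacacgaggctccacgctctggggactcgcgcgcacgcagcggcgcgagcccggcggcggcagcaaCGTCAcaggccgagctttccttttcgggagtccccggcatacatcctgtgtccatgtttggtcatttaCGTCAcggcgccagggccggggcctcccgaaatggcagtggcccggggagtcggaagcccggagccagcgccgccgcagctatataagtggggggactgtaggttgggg
Nab1 is shown for its 3 matches to the Egr site, in capitals, all within the annotated span of the gene and read on the minus strand. They lie at chr1:52500571-52500600, chr1:52500539-52500568 and chr1:52500468-52500497 in the order given.
Nab1 site 1: cgccccgcggcCGCCCACGCcgggatctgc
Nab1 site 2: cactcggccgcGCGTGGGCGggagccggag
Nab1 site 3: cgcggggcgggGCGGGGGCGgcggaggtgg
An Egr site was present in 4.7% of the windows, and the Nab1 window was 80.8% G and C. The Nab1 window also held 1 response element core. The Nab2 window at chr10:127666704-127666953 held no match to the 4 motifs. These matches describe letters in the windows, and binding was not measured.

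The array medians ran from 132.6 to 152.1 before normalization, and 20804 to 21672 probes were detected per array. Of 10 marker genes of hippocampal principal neurons, 8 were tested, each detected on all 12 arrays, whereas the probes of Neurod6 and Calb1 did not pass the detection filter. None of the 4 markers of Schwann cells, the peripheral glia that depend on Egr2, had a tested probe. The choroid plexus transcript Ttr stood at 8.33 to 11.00 (log2 signal) on ethanol 1, ethanol 3, control 1 and control 4, against 15.56 to 15.81 on the other 8 arrays, and the ethanol differences are given with and without these 4 arrays.

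All 4 Egr genes were detected on all 12 arrays with their brightest probe. On the RefSeq annotation of GRCm38.p6, Egr1 lies on chromosome 18, Egr2 and Nab2 on chromosome 10, Egr3 on chromosome 14, Egr4 on chromosome 6 and Nab1 on chromosome 1. No Egr probe passed the test between ethanol and control, and the 2 lowest point estimates were those of Egr2 and Egr1. In these pieces of tissue, fewer cells of a type and less RNA per cell cannot be told apart. Of all 21263 tested probes, 0% passed an adjusted p of 0.05 (limma, Benjamini-Hochberg) and 4.81% had an unadjusted p under 0.05.

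Egr1 had log2 signals from 13.20 to 13.96 in the ethanol group, with a median of 13.49, and from 13.63 to 13.99 in the control group, with a median of 13.74. Ethanol 3 was within the control range, and the other 5 ethanol arrays lay below every control array. The means were 13.51 ± 0.25 (SD, n = 6) and 13.75 ± 0.13 (SD, n = 6), a difference of -0.24 (95% interval -0.48 to 0.00039) or a fold of 0.848, with an adjusted p of 1.00 by limma. The difference was -0.20 on the first beadchip and -0.27 on the second. Without the 4 arrays low in Ttr it was -0.21.

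Egr2 ran from 6.65 to 8.35 in the ethanol group (median 7.24) and from 7.66 to 8.31 in the control group (median 7.91). The same 5 ethanol arrays lay below every control array, while ethanol 3 lay above every control array, so the ethanol group spanned the control group. The means were 7.32 ± 0.60 (SD, n = 6) and 7.95 ± 0.27 (SD, n = 6), a difference of -0.62 (95% interval -1.13 to -0.12) or a fold of 0.649. The unadjusted p was 0.0189 and the adjusted p was 1.00 by limma. Leaving out ethanol 3 moved the difference to -0.83 and leaving out ethanol 6 moved it to -0.49. It was -0.45 on the first beadchip, -0.79 on the second and -0.77 without the 4 arrays low in Ttr. Without background subtraction the Egr2 difference was -0.39. Ethanol 3 is one of those 4 arrays. Egr2 was at 7.25 to 8.35 (median 8.13) on these 4 arrays and at 6.65 to 8.23 (median 7.62) on the others. The ranges overlap, and the part of choroid plexus RNA in the level of Egr2 was not tested.

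Egr3, the factor needed for muscle spindles as well as for memory, was read by a pair of probes of very different brightness. On the brighter, ILMN_1227494, it ran from 12.13 to 12.56 in ethanol (median 12.40) and from 12.24 to 12.68 in controls (median 12.51). The groups overlapped, and the difference was -0.10 (95% interval -0.33 to 0.13), or -0.03 without the 4 arrays low in Ttr. The dimmer probe, ILMN_2653543, was detected on 9 of 12 arrays, 4 ethanol and 5 control, with a difference of -0.09 (95% interval -0.50 to 0.33). Without the arrays low in Ttr it was 0.00629, and without control 3 it was 0.0167. The estimates thus lay within 0.0164 of each other, yet array by array the probes had an r of only 0.14 over 12 arrays. On the dimmer probe the difference was -0.46 on the first beadchip and 0.28 on the second (adjusted p of the difference between beadchips 0.999 by limma, unadjusted p 0.0588).

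Egr4 ran from 10.60 to 11.04 in ethanol (median 10.72) and from 10.51 to 10.96 in controls (median 10.88). The groups overlapped over nearly their whole ranges, with a difference of -0.04 (95% interval -0.26 to 0.18), or -0.16 without the 4 arrays low in Ttr. It was 0.14 on the first beadchip and -0.22 on the second (unadjusted interaction p 0.0877, adjusted p 0.999 by limma). Scaling the arrays to a common median in place of quantile normalization turned the Egr4 difference to 0.03 and that of Nab2 to 0.02. Under that scaling 29.5% of all genes had a lower mean in ethanol, against 48.1% with quantile normalization, and the median over all genes was 0.06 in place of 0.00.

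**Figure D1:**
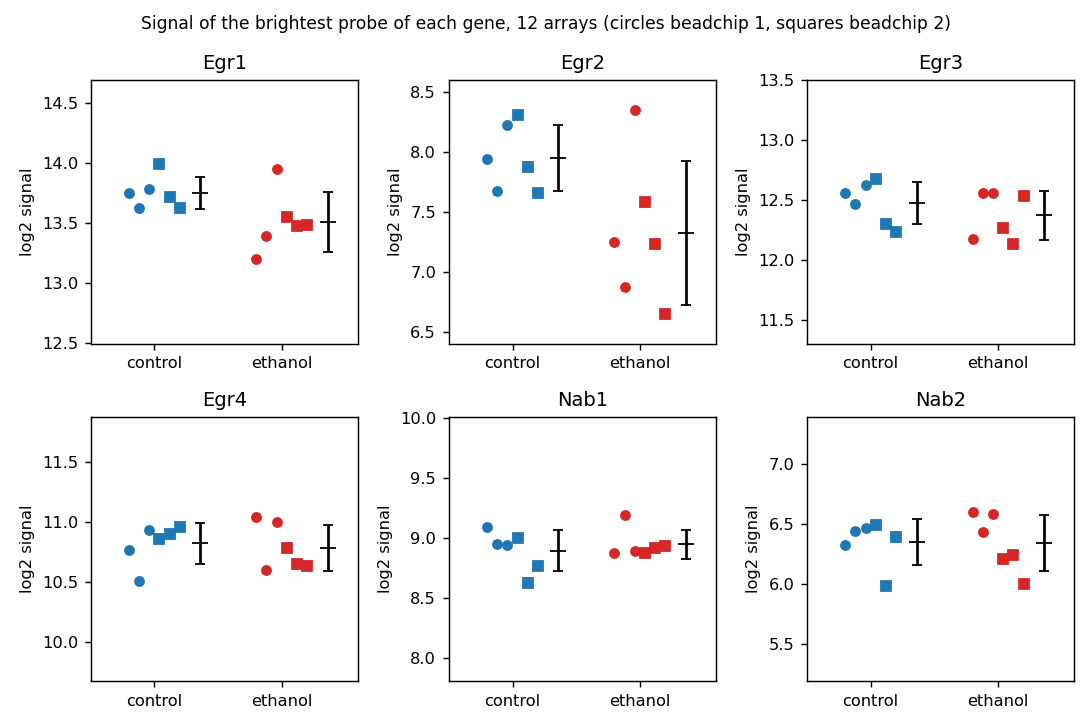
Log2 signal of the brightest probe of each of the 6 genes in control and ethanol arrays, with circles for beadchip 1, squares for beadchip 2 and lines for the mean and SD of each group (n = 6). Ethanol 3 stands at the top of its group for Egr1 and Egr2, and the groups overlap in all 6 panels.

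The corepressor Nab1 had 6 probes, of which 5 were tested and 1, ILMN_2657093, was not well above background on any of the 12 arrays. Of the 5 tested probes 3 had a difference above 0 and 2 below 0, and the sign was not stable on 2 of the 3. On the brightest, ILMN_2950594, Nab1 ran from 8.87 to 9.19 in ethanol (median 8.90) and from 8.62 to 9.09 in controls (median 8.94). These ranges overlapped, and the difference was 0.05 (95% interval -0.14 to 0.24). It was 0.16 without the 4 arrays low in Ttr and -0.00236 without control 5.

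Nab1 probe ILMN_2712634 ran from 6.83 to 6.96 in ethanol (median 6.94) and from 7.09 to 7.55 in controls (median 7.27). Every ethanol array lay below every control array on it, a separation by which the gene was chosen. The means were 6.92 ± 0.05 (SD, n = 6) and 7.30 ± 0.17 (SD, n = 6), a difference of -0.38 (95% interval -0.55 to -0.20) or a fold of 0.770. It ranked 9 by p among all tested probes, with an unadjusted p of 0.000372 and an adjusted p of 0.731 by limma. Among all tested probes, 0.113% had every ethanol array below every control array, 0.0894% had every one above, and 0.202% had either. The difference was -0.50 on the first beadchip, -0.26 on the second and -0.39 without the 4 arrays low in Ttr. Without background subtraction it was -0.22.

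The other 3 Nab1 probes overlapped between groups. ILMN_1257313, which the annotation ties to a cDNA clone rather than to the RefSeq transcript of the others, ran from 5.91 to 6.34 in ethanol and from 6.11 to 6.74 in controls, and 3 of the 6 ethanol values were under the lowest control value. Its difference was -0.27 (95% interval -0.53 to -0.01), with an unadjusted p of 0.0424 and an adjusted p of 1.00 by limma, and was -0.17 without the 4 arrays low in Ttr. ILMN_2721761 had a difference of 0.09 (95% interval -0.11 to 0.28), which was 0.18 without those arrays and 0.0155 without control 2. ILMN_2712635 had one of 0.04 (95% interval -0.24 to 0.31), which turned to -0.07 without those arrays and ran from -0.0331 to 0.127 when 1 array was left out. With Egr2, the pair of Nab1 probes below 0 made up the 3 of 11 member probes with an unadjusted p under 0.05, all lower in ethanol, beside 2.35% of all probes in that direction. Of the 11 member probes 8 had a difference below 0, as had 49.3% of all probes.

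Array by array the Nab1 probes followed each other little. Over the 10 pairs of tested Nab1 probes r had a median of 0.02 and ran from -0.59 to 0.43, with 5 pairs above 0. In the 78 genes with 5 tested probes the median r was 0.24 over 780 pairs, and in the 4477 genes with several tested probes it was 0.26 over 9712 pairs. The ethanol differences of Nab1 probes spanned 0.46, against a median span of 0.25 in genes with 5 tested probes, 89.7% of which had a smaller span. The lower end of the Nab1 span is ILMN_2712634, the probe by which the gene was chosen. Its place among the other genes therefore follows in part from that choice. These r values are across arrays of single probes and share each array's hybridisation. Which exons or transcripts the probes read is not given in the sources used here.

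**Figure D2:**
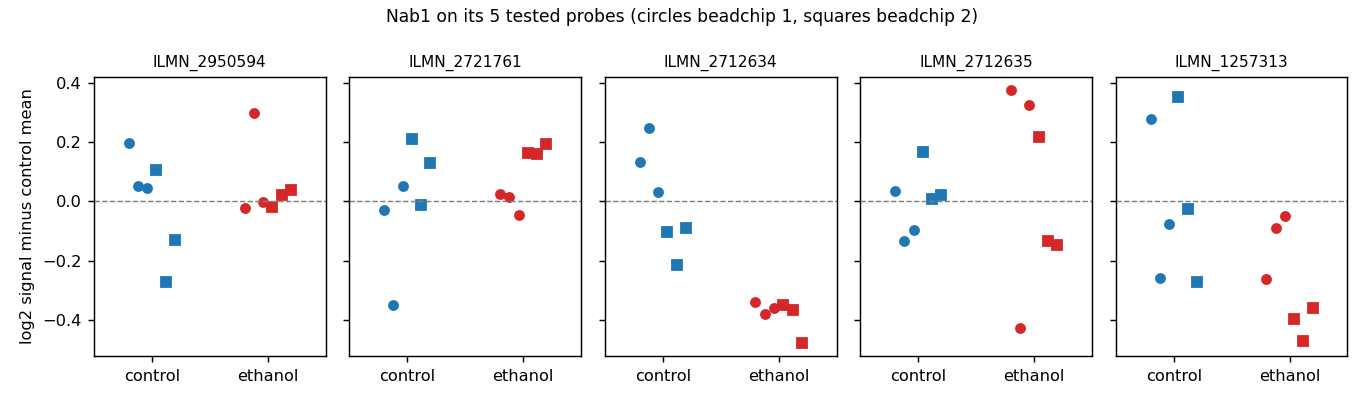
Log2 signal minus the control mean for the 5 tested Nab1 probes, by group, with circles for beadchip 1 and squares for beadchip 2. Only on ILMN_2712634 do all 6 ethanol arrays lie below all 6 control arrays.

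Nab2, the corepressor that is itself activity-induced, had 1 probe, detected on all 12 arrays. It ran from 5.99 to 6.60 in ethanol (median 6.34) and from 5.98 to 6.49 in controls (median 6.41). The ranges coincided almost entirely, with a difference of -0.01 (95% interval -0.26 to 0.25). It was -0.10 without the 4 arrays low in Ttr and ran from -0.08 to 0.06 when 1 array was left out.

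**Figure D3:**
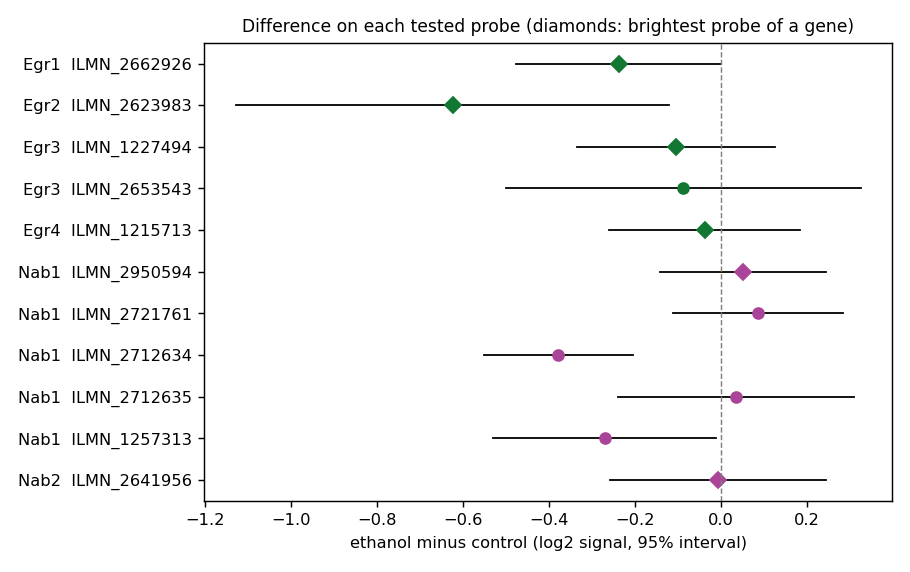
Ethanol minus control difference in log2 signal with its 95% limma interval for the 11 tested probes, diamonds marking the brightest probe of each gene. The intervals of Egr2 and of Nab1 probes ILMN_2712634 and ILMN_1257313 lie below 0, and none of the 11 probes passed the adjusted test.

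Between the beadchips, with group as a term, no member probe passed the test, where 0.0282% of all probes did. An unadjusted p under 0.05 was found for 3 of the 11 member probes, beside 11.2% of all probes. Nab2 was 0.25 lower on the second beadchip (difference -0.25, 95% interval -0.47 to -0.04, adjusted p 0.363 by limma). Nab1 on ILMN_2721761 was higher there by 0.20 (95% interval 0.03 to 0.36, adjusted p 0.379 by limma), whereas on its brightest probe it differed by -0.14 (adjusted p 0.561 by limma). The Nab1 probe ILMN_2712634, on which the groups separated, differed by -0.16 (95% interval -0.307 to -0.004, adjusted p 0.435 by limma). The Egr genes differed by 0.02 for Egr1, -0.17 for Egr2, -0.13 for Egr3 and -0.01 for Egr4. The ethanol difference did not pass a test of unequal size on the beadchips for any member probe, as for 0% of all probes by limma, with 4.2% of all probes at an unadjusted p under 0.05.

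Within groups, Egr2 varied more than most probes of like brightness. Its SD around the group means was 0.47, larger than that of 97.8% of the 3262 probes within 0.5 log2 units of its mean signal. Egr1 had an SD of 0.20, larger than that of 95.9% of its 366 like probes, and Egr3 one of 0.19, larger than 93.4% of 905. Egr4, at 0.18, exceeded 84.3% of its like probes. The Nab genes varied less, with Nab1 above 39.4% of like probes on its brightest probe and Nab2 above 20.7%. On Nab1 probe ILMN_2712634 the SD of 0.13 was larger than that of only 2.37% of its like probes. The separation of the groups by which this probe was chosen favours a small SD, so this place is not independent of the choice.

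Whether Nab genes varied with Egr genes from array to array was asked on the brightest probe of each gene, in 15 gene pairs of which 8 join a Nab with an Egr gene. The points share each array's hybridisation and normalization. Egr1 and Egr2 varied together: Pearson r was 0.85 over the 12 arrays (permutation p 0.0005, adjusted over the 15 pairs 0.0075) and Spearman rho 0.93 (permutation p 4.0e-05, adjusted 0.0006). Because both had lower means in ethanol, r was also taken after removing group means, where it was 0.78 (permutation p 0.0177, adjusted 0.139) with rho 0.76 (adjusted 0.114) and no longer passed. Within the control group r was 0.91 (exact permutation p 0.00139, adjusted 0.0208, n = 6), and within the ethanol group it was 0.75 (exact permutation p 0.113, adjusted 0.651, n = 6). It was 0.90 on the first beadchip and 0.87 on the second, with adjusted exact permutation p of 0.229 and 0.396. Without the 2 arrays farthest from the Egr1 median, ethanol 1 and control 4, r was 0.92. Without the 4 arrays low in Ttr, and with group means kept, it was 0.91 (adjusted exact permutation p 0.0298, n = 8). This r also holds the group difference, which was -0.21 for Egr1 and -0.77 for Egr2 on these 8 arrays.

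No other Egr pair passed. Egr1 and Egr3 had an r of 0.60 (permutation p 0.0397, adjusted 0.273) and rho of 0.70 (adjusted 0.107), r 0.55 with group means removed, and 0.76 and 0.63 on the beadchips. It was at least 0.487 when 1 array was left out, 0.34 without the 2 arrays farthest from the Egr1 median, which narrows the range of Egr1, and 0.09 without the 4 arrays low in Ttr. Egr2 and Egr4 had an r of 0.52 (adjusted permutation p 0.318), Egr2 and Egr3 one of 0.35, Egr1 and Egr4 one of 0.24, and Egr3 and Egr4 one of -0.14. These values depended on the arrays used. Without the 2 arrays farthest from the Egr2 median, ethanol 6 and ethanol 2, Egr2 had an r of 0.90 with Egr3 and 0.27 with Egr4. Egr2 with Egr3 was 0.81 within controls, 0.02 within ethanol and -0.08 without the 4 arrays low in Ttr. Egr1 with Egr4 was 0.72 without ethanol 1 and control 4.

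None of the 8 pairs of a Nab with an Egr gene passed, and their r ran from -0.49 to 0.57. Nab1 was nearest to Egr3, with r 0.57 (permutation p 0.0547, adjusted 0.273) and rho 0.62 (adjusted 0.131), and r 0.66 with group means removed (adjusted permutation p 0.139). That r was 0.81 within controls, 0.51 within ethanol, 0.44 and 0.50 on the beadchips, and 0.69 without the 2 arrays farthest from the Egr3 median. With Egr4, Nab1 had an r of -0.49 (adjusted permutation p 0.331) and rho of -0.62 (adjusted 0.131). That r was -0.14 with arrays scaled to a common median. With Egr1 and Egr2 the r of Nab1 was -0.06 and -0.19. These were -0.63 and -0.51 without the 4 arrays low in Ttr, but 0.39 and 0.40 within controls. Nab2 had an r of 0.12 with Egr1, 0.39 with Egr2, 0.22 with Egr3 and 0.34 with Egr4, and 0.37 with Nab1. Nab2 with Egr4 was 0.67 without control 2 and ethanol 2, and -0.22 within controls.

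**Figure D4:**
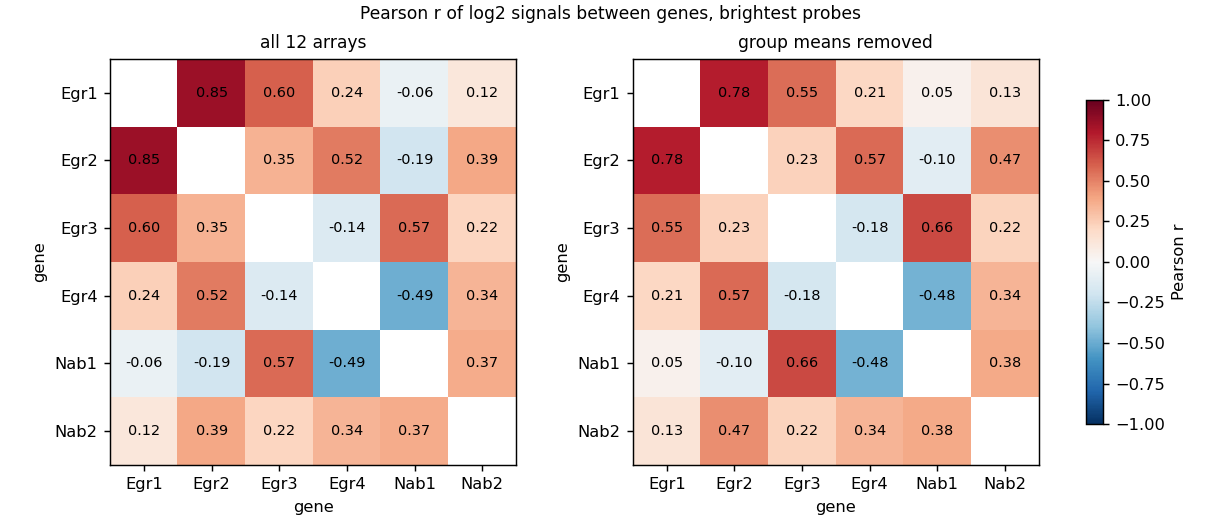
Pearson r between the log2 signals of the brightest probes of the 6 genes, over all 12 arrays (left) and with group means removed (right). Egr1 with Egr2 has the highest value in both panels, 0.85 and 0.78, and Nab1 runs from -0.49 with Egr4 to 0.57 with Egr3 in the left panel.

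The Nab1 values depended on the probe. With Egr4, r was -0.49 on the brightest Nab1 probe and 0.74 on ILMN_2712635. With Egr1 it ran from -0.06 on the brightest probe to 0.66 on ILMN_1257313, and with Egr2 from -0.19 to 0.62 on the same probes. With Egr3 it ran from -0.21 on ILMN_2712635 to 0.67 on ILMN_1257313. These r values hold the difference between the groups. With group means removed, ILMN_1257313 had an r of 0.51 with Egr1 and 0.43 with Egr2. The highest r with Egr2 was then 0.66, on ILMN_2712635. ILMN_2712634, by which Nab1 was chosen, went from 0.40 to -0.15 with Egr1 and from 0.53 to 0.06 with Egr2. With group means kept or removed, no sign of a Nab1 relation to Egr1, Egr2, Egr3 or Egr4 held over all 5 probes.

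**Figure D5:**
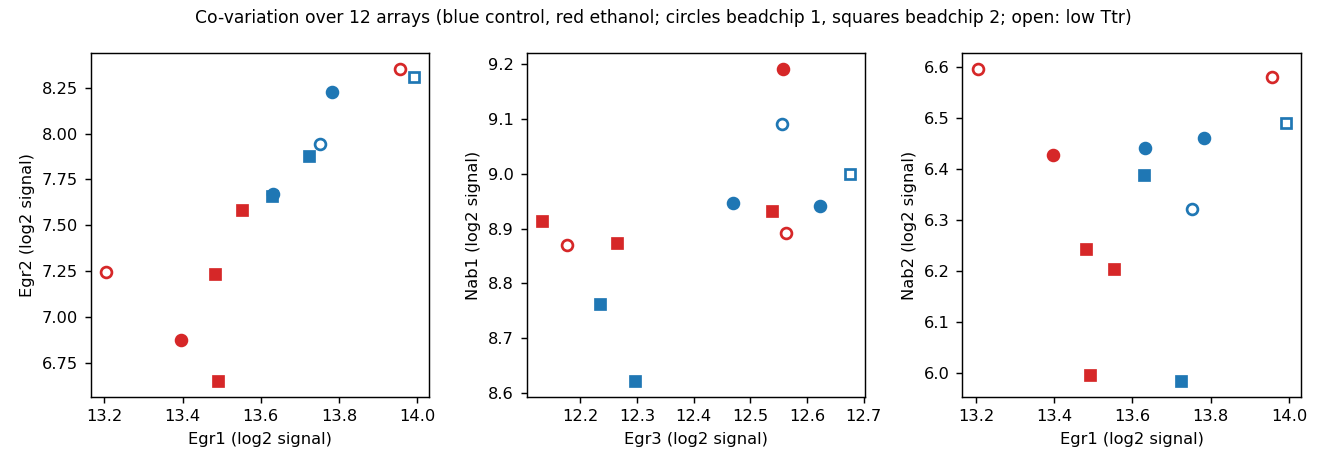
Log2 signals of pairs of genes over the 12 arrays, blue for control and red for ethanol, circles for beadchip 1, squares for beadchip 2 and open symbols for the 4 arrays low in Ttr. Egr1 with Egr2 has an r of 0.85, Egr3 with Nab1 one of 0.57 and Egr1 with Nab2 one of 0.12. With group means removed these are 0.78, 0.66 and 0.13.

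Among the 11400 other genes, with group means removed, Egr2 ranked 51 in likeness to Egr1 by Pearson r over 12 arrays, and Egr1 ranked 61 in likeness to Egr2. Nab1 ranked 340 in likeness to Egr3. The 5 genes most like Egr1 were Nufip1 (r 0.93), Egfr (0.92), Nckap1l (0.91), Crat (0.88) and Usp28 (0.88), and those most like Egr2 were Prrc2b (0.90), Asic1 (0.90), 5730409K12Rik (0.88), Sema3a (0.87) and Sgsm1 (0.87). For Egr3 they were Htr1f (0.95), Gpr176 (0.94), Ythdf3 (0.93), Arhgap20 (0.91) and Slc39a3 (0.91), and for Egr4 Col7a1 (0.91), Lsm2 (0.90), Dlgap3 (0.90), Olfr1412 (0.90) and Arhgap1 (0.89). Nab1 was most like Zbtb24 (0.93), Stxbp5 (0.93), Cfap97 (0.92), Glg1 (0.92) and Ep300 (0.92), and Nab2 most like Dhdds (0.94), Sox13 (0.93), Ripor2 (0.91), Cntn6 (0.91) and Ehmt2 (0.90). Nufip1 and Olfr1412 were dim, detected on 7 and 8 of the 12 arrays, and the others on all 12. No gene stood in more than 1 of these 6 groups. With 12 arrays and 11400 genes, values this high occurred for all 6 members, and they are given as a description.

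The 29 tested other immediate early and activity genes had a median r of 0.31 with Egr1 and 24 of 29 above 0, where all genes had a median of 0.02 and 52.4% above 0. The microglia markers had a median of 0.47 with Egr1 (6 of 6 above 0) and the endothelium markers one of 0.40 (4 of 4). Arc, the synaptic scaffold gene that Egr factors bind, ranked 11 in likeness to Egr1 (r 0.85), and Dusp6, the phosphatase that switches off ERK, ranked 6 (r 0.88). Arc and Dusp6 had the highest r with Egr1 of the pathway genes listed, whereas Fos had 0.71, Spry4 0.34 and Csrnp1 0.06. Junb and Npas4, the inducible neuronal factor, were chosen after their values were seen. Junb ranked 17 in likeness to Egr2 (r 0.83) and Npas4 39 in likeness to Egr3 (r 0.81). The medians of the 29 immediate early and activity genes were 0.24 with Egr2 and 0.19 with Egr3, but 0.07 with Egr4, 0.09 with Nab1 and 0.13 with Nab2. The 6 tested feedback inhibitors of ERK all had an r above 0 with Egr1, Egr2 and Egr3, with medians of 0.62, 0.50 and 0.39, where 52.4%, 54.1% and 51.2% of all genes were above 0. Their medians with Egr4, Nab1 and Nab2 were 0.17, 0.15 and 0.16.

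Markers of other cells and regions moved with these levels too. All 7 choroid plexus markers had an r below 0 with each of the 6 members, with medians from -0.58 for Egr2 to -0.22 for Nab1. Of all genes, 50.6% (Nab1) to 54.9% (Nab2) had an r above 0 with a member. Markers of 1 tissue or cell type are not separate observations. All 6 microglia and all 4 endothelium markers had an r above 0 with Egr1, Egr2 and Egr3. The microglia medians were 0.30 with Egr2 and 0.38 with Egr3, and the endothelium median was 0.18 with each. With Egr4, 2 of 6 microglia markers (median -0.11) and 0 of 4 endothelium markers (median -0.41) were above 0. Of the 4 tested oligodendrocyte markers 0 were above 0 with each Egr gene and with Nab2, and 3 with Nab1. The summed log2 level of the choroid plexus markers ran from 10.18 to 16.03 in ethanol and from 9.35 to 15.93 in controls. Of the 5 isocortex markers 4 had an r above 0 with Egr1 (median 0.58) and 5 with Egr2 (median 0.51), and their summed level ran from 12.99 to 13.25 in ethanol and from 13.06 to 13.28 in controls. The part of these cells and tissues in the co-variation of Egr1 and Egr2 was not tested. The r of 0.91 on the 8 arrays that are high in Ttr keeps the group means, so it also holds the difference between the groups.

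The rest of the pathway did not pass the ethanol test in any list. Of 31 genes upstream of Egr induction, 18 were tested and 7 of these had a lower mean in ethanol, with a median difference of 0.01. The values nearest to a call were -0.11 for Map2k2, the ERK-activating kinase MEK2, -0.15 for Grin2b, an NMDA receptor subunit, 0.13 for Camk4 and 0.12 for Camk2b, both calcium/calmodulin kinases. Over all 11401 genes, 48.1% had a lower mean in ethanol and the median was 0.00.

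The feedback inhibitors of ERK had a lower mean in ethanol for 6 of 6 tested genes of 7 listed, with a median of -0.11. Dusp5 had a difference of -0.20, Dusp4 -0.15, Spry4 -0.15 and Dusp6 -0.07, and 0 of the 6 had an unadjusted p under 0.05. With arrays scaled to a common median, where 29.5% of all genes were lower, 3 of the 6 had a lower mean.

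Of 17 corepressor partners of Nab and Egr proteins, which include NuRD subunits, 13 were tested and 6 had a lower mean, or 3 with a common median, with a median of 0.00. Mta3 and Mbd3, both NuRD subunits, had differences of 0.18 and -0.09, Ddx20, a helicase that binds Egr2, 0.08, and Chd3, a NuRD remodelling ATPase, -0.10.

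Of 17 genes reported as Egr targets, 15 were tested, 6 had a lower mean, or 2 with a common median, and the median was 0.01. Arc ran from 9.29 to 11.06 over the 12 arrays and had a difference of -0.52 (95% interval -1.03 to -0.02, adjusted p 1.00 by limma). It was the only one of the 15 with an unadjusted p under 0.05. Bace1, the beta-secretase gene, had 0.05, Ace, the angiotensin-converting enzyme gene, 0.32 and Htr2a, a serotonin receptor gene, -0.16.

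Of the 38 other immediate early and activity genes, a list that also holds Arc, 29 were tested and 18 had a lower mean, with a median of -0.02. With arrays scaled to a common median, 11 of the 29 had a lower mean, beside the 29.5% of all genes. An unadjusted p under 0.05 was found for 4 genes lower and 1 higher in ethanol, beside 2.05% of all genes lower and 2.44% higher. Fos had a difference of -0.62 (95% interval -0.97 to -0.27, adjusted p 0.993 by limma), Fosb -0.47, Nr4a2, an orphan nuclear receptor gene, -0.31 and Csrnp1 0.20. Red blood cell markers had a lower mean in ethanol for 4 of 4 genes, each with an unadjusted p under 0.05, with a median difference of -0.57 and with -0.96 for Slc4a1 (unadjusted p 0.000528 by limma). Their summed level was 15.37 to 16.54 in ethanol and 15.91 to 16.62 in controls. Microglia markers had a lower mean for 6 of 6 genes, with a median of -0.10, at 11.64 to 11.89 and 11.71 to 11.94. Their part in the differences of Egr1, Egr2 and Nab1 was not tested.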

How the data were processed

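Hippocampal RNA of 12 samples was hybridised to 12 arrays. Per the file headers, the deposited scanner table holds a linear bead intensity and a detection p-value for each probe and array. GenomeStudio 1.9.0 is named in the submitters' processing notes. The authors' processed table holds linear intensities, each array with a median of 141.6, and was used as an alternative. In R 4.3.3, with limma 3.58.1 and statmod 1.5.0, intensities were background corrected by normexp through the detection p-values with an offset of 16, quantile normalized and put on the log2 scale, and probes were kept as described above. The offset draws differences of dim probes towards 0. Of the tested probes, 18064 had 1 gene in the annotation, 9 several and 3190 none. Where a gene had several probes, the one with the highest mean represented it. Groups and beadchips were compared in limma (lmFit, eBayes) on the 12 arrays together. Adjusted p-values are Benjamini-Hochberg values taken over every tested probe, the threshold was 0.05, and intervals are 95%. Two-sided permutation p-values of r used 100000 resamples with 10 or more arrays and were exact with fewer. The number of arrays limits the precision. The members and lists were chosen with earlier results of these data known. Named genes are all members, the 5 genes most like each, and up to 4 genes of a list by p; others are named as chosen after their values were seen. Scripts were tested on simulated data. Array pairs correlated at 0.981 to 0.993, and none were merged. Promoter sequences are from RefSeq, GRCm38.p6. Background correction, offset, scaling, the authors' values, the probe filter, array weights, beadchip and replicate blocks, and left-out arrays were the alternatives.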

Additional observations from a re-analysis of the deposited data

Results flagged for a closer look

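In 22 groups of 6 arrays, 1 per tested probe and group, the highest or lowest array was set against the others by Dixon's test at the 95% level, which flags about 1 in 20 such groups by chance. It picked out 3. Nab2 stood at 5.98 on control 5, the lowest of its group, where the other 5 control arrays lay between 6.32 and 6.49. Nab1 probe ILMN_2712634 stood at 6.83 on ethanol 6, the lowest of its group, with the others between 6.92 and 6.96. This array lowers the ethanol mean but does not change the gap between the highest ethanol and lowest control array. Nab1 probe ILMN_2950594 stood at 9.19 on ethanol 2, the highest of its group, with the others between 8.87 and 8.93. No array was picked out more than once, and ethanol 3 was not picked out for Egr1 or Egr2.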

How the results depend on the processing

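In the ethanol comparison 0 probes passed under the alternatives run, and each member difference moved by less than the larger of its group SDs. For Nab1 ILMN_2712634 the move without background subtraction, to -0.217, exceeded its pooled within-group SD. Differences near 0 changed sign on 5 probes, of Egr3 (the dimmer), Egr4, Nab1 (ILMN_2950594 and ILMN_2712635) and Nab2, as given above. Leaving out 1 array moved Egr1 between -0.327 and -0.176, Egr2 between -0.829 and -0.489 and Nab1 ILMN_2712634 between -0.421 and -0.329. The groups share replicate numbers, and the labels do not say whether these pair the arrays. Deviations of same-numbered arrays correlated at -0.25 to 0.33, and 1 of 6 pairs was each other's best match. Such correlations cannot decide this, since a pairing by design need not show in them. With the replicate block 0 probes passed (lowest adjusted p 0.898 by limma). Egr1 with Egr2 then had an r of 0.85 and a Spearman rho of 0.69. Each replicate number holds 1 ethanol and 1 control array, so removing its mean leaves mirrored values, of which only 6 are independent. The permutation treated them as 12 free values, so its adjusted permutation p of 0.0184 for r and 0.118 for rho cannot be read as tests. These values also keep the difference between the groups. In the ethanol comparison the block changed no call. The block turned the r of Egr1 with Nab1 to 0.0402, Egr3 with Nab2 to -0.375, Egr1 with Egr4 to -0.0434, Egr1 with Nab2 to -0.0165 and Nab1 with Nab2 to -0.0776.

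The number of probes that differed between beadchips was 6 and became 26 without background subtraction, 26 on the authors' values, 12 with an offset of 50, 12 with array weights, 1 with a common median, 1 without the probe filter, 0 without the 4 arrays low in Ttr, and 0 to 3 with 1 array left out. The count of correlated pairs was 1 and became 0 with group means removed, 0 within ethanol, 0 within beadchip 1 and 0 within beadchip 2. The values within a group or beadchip rest on 6 arrays each, and the causes of the other changes were not tested.

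Small beadchip differences changed sign: Nab1 ILMN_2712635 to -0.000805 without background subtraction and -0.000628 on the authors' values, Egr1 to -0.0429 with a common median, Egr4 to 0.043 with array weights and 0.161 without the arrays low in Ttr, and Egr2 to 0.0167 without those arrays. With 1 array left out they ran from -0.0419 to 0.125 for Egr1, -0.284 to 0.0438 for Egr2, -0.178 to 0.106 for Egr3 ILMN_2653543, -0.0799 to 0.0476 for Egr4 and -0.0925 to 0.0859 for Nab1 ILMN_2712635. The interaction turned to -0.0123 for Egr3 with a common median, and with 1 array left out ran from -0.228 to 0.148 for Egr1, -0.646 to 0.0929 for Egr2, -0.102 to 0.162 for Egr3 and -0.126 to 0.0748 for Nab1 ILMN_2721761.

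Weak r values also turned. Egr1 with Nab1 became 0.00111 with a common median, 0.0464 with group means removed, 0.388 within controls and 0.0754 within beadchip 2. Egr3 with Egr4 became 0.0275 with a common median and 0.00164 within beadchip 2. Egr3 with Nab2 became -0.0309 with beadchip means removed, -0.0305 within ethanol and -0.539 within beadchip 1, where Egr1 with Nab2 was -0.192 and Nab1 with Nab2 -0.738. Within controls Egr2 with Nab1 was 0.396 and Egr4 with Nab2 -0.218. Without the arrays low in Ttr, Egr4 with Nab2 was -0.0804 and Egr2 with Egr3 -0.0756. With 1 array left out r ran from -0.178 to 0.169 for Egr1 with Nab1, -0.0568 to 0.47 for Egr1 with Nab2, -0.289 to 0.0864 for Egr2 with Nab1 and -0.326 to 0.0488 for Egr3 with Egr4. Signal over background limits the dim probes, Nab2 and 4 of the Nab1 probes among them.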
